A study of Homo sapiens with 6 samples.

Results

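The D-type cyclins, their kinase partners CDK4 and CDK6, the inhibitors of these kinases and the retinoblastoma gene RB1 were followed in RCC10 cells, an established line of human clear cell renal carcinoma. Members were taken by gene symbol: CCND1, CCND2, CCND3, CDK4, CDK6, CDKN1B, CDKN1C, CDKN2A, CDKN2B and RB1. Of these 10, 8 were found among the 19009 genes of the table, and all 8 were tested. CDKN2A and CDKN2B were not analysed here. Messenger RNA came from 3 groups of 2 libraries: untreated parental cells (WT), cells transduced with guide RNA lentivirus against both HIF-1alpha and HIF-2alpha and selected with puromycin to knock both out (DKO), and cells given a VHL lentivirus (VHL, here VHL-transduced). The subject, by the title of the series, is the HIF transcriptome of this carcinoma. All cells were grown in the same serum-containing medium, no group is labelled as carrying a control guide or an empty vector, and no label says whether the knockout line was 1 clone or a pool.

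Cells leave G1 when a D-type cyclin binds CDK4 or CDK6 and the complex phosphorylates the retinoblastoma protein, which then releases E2F transcription factors that switch on replication genes. Inhibitors of the INK4 family bind CDK4 and CDK6 themselves, whereas those of the CIP/KIP family bind cyclin-kinase complexes, CDK2 complexes above all. In clear cell renal carcinoma VHL is usually lost, HIF-2alpha accumulates, and CCND1 is known as one of its targets in that setting.

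Libraries held 22248126 to 29929116 counts. Values are CPM, counts scaled to library size after correction of libraries by the TMM method, and ± marks the SD of 2 libraries unless said otherwise. A gene was called at an adjusted p under 0.05 in edgeR's quasi-likelihood test, corrected over all 18273 genes tested. The targeted genes were read first: EPAS1, the HIF-2alpha gene, was at 352 and 349 CPM in parental and 44.4 and 48.0 in DKO libraries, HIF1A at 69.5 and 72.9 against 29.6 and 31.6, and VHL at 38.8 and 39.5 in parental against 652 and 723 in VHL-transduced libraries. HIF1A was also 4.15-fold higher in VHL-transduced than in parental cells, at 304 and 286 CPM (adjusted p = 1.5e-22, edgeR). ARNT, the shared HIF partner subunit, fell 1.31-fold in DKO cells. The table does not show whether HIF proteins were lost. The renal factor PAX8 had 297 to 416 CPM in every library. The 12 renal markers summed to 9339 to 9426 CPM in parental, 7209 to 7223 in DKO and 6086 to 6438 in VHL-transduced libraries. Vimentin (VIM) was the largest part, at 7022 and 7020 CPM in parental, 4665 and 4768 in DKO and 3016 and 3210 in VHL-transduced libraries. Several renal markers changed far more than PAX8. NDUFA4L2 went from 60.1 and 57.3 CPM in parental libraries to at most 0.0342 in DKO and 0.214 in VHL-transduced libraries. CA12 fell 2.90-fold and 200.5-fold, CDH16 17.5-fold and 1.37-fold and CDH6 5.91-fold and 2.32-fold in DKO and VHL-transduced cells. In the same order KRT18 rose 2.42-fold and 2.74-fold and KRT8 1.14-fold and 1.98-fold, and PAX2 rose 9.31-fold in DKO cells. The call of KRT8 in DKO cells was lost without parental replicate 2, where its log2 fold change was 0.18. Of the 12, 5 were called higher and 6 lower in DKO cells, and 3 higher and 7 lower in VHL-transduced cells. Among all genes tested, 54.1% and 54.2% were called. CA9, a marker of this carcinoma, had at most 0.0441 CPM. Of other cell types, the leukocyte markers PTPRC and CD3E, the endothelial markers PECAM1 and KDR and the fibroblast marker COL3A1 had no count in any library. Summed leukocyte markers were at 0.573 to 0.607 CPM in parental, 0.699 to 0.821 in DKO and 1.65 to 1.75 in VHL-transduced libraries. Endothelial markers summed to 0.539 to 0.617, 0.239 to 0.311 and 1.75 to 1.86 CPM in that order. TEK alone was at 1.68 and 1.82 CPM in VHL-transduced libraries. CSF1R, CD79A and TEK were called higher in VHL-transduced than in parental cells (adjusted p = 0.000419, 0.0100 and 1.7e-06, edgeR). LYZ and CLDN5 were higher there and CD14 and VWF lower, none of them called (adjusted p = 0.0976, 0.523, 0.835 and 0.181, edgeR). With limma-voom VWF was called lower (adjusted p = 0.0303, limma-voom). The call of CD79A was lost without parental replicate 2 or VHL-transduced replicate 2, and also with DESeq2 on all libraries (adjusted p = 0.0671, Wald test). The 5 fibroblast markers in the table summed to 18.0 to 18.2, 6.09 to 6.25 and 25.8 to 27.2 CPM in parental, DKO and VHL-transduced libraries. They did not move together. In DKO cells COL1A1 and PDGFRB fell 6.08-fold and 3.77-fold, whereas THY1 rose 3.26-fold. In VHL-transduced cells PDGFRB and THY1 rose 1.63-fold and 4.06-fold, and COL1A1 was not called (adjusted p = 0.507, edgeR). The part of these markers of other cell types in the results was not tested. Nothing in the labels says that replicates were separate cultures, so p-values measure how far these libraries vary, perhaps for technical reasons alone.

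Against parental cells, all 8 measured members were called in DKO cells, 6 higher and 2 lower, where 54.1% of all genes were called (26.6% higher and 27.5% lower). In VHL-transduced cells 7 of the 8 were called, 4 higher and 3 lower, against 54.2% of all genes (26.5% higher and 27.7% lower). Between the engineered lines 7 of 8 differed, 4 higher and 3 lower in DKO cells, against 56.0% of all genes (28.0% in either direction). A filter against low counts kept 14131 genes, and the same members were called. Of the genes kept, 70.5% were called in each comparison with parental cells and 72.5% between the engineered lines. Most shifts of the members were small. CCND2 and CDKN1C passed a change of at least 2-fold in DKO cells and again in VHL-transduced cells, 2 of 8 members in each case, with 16.3% and 14.5% of all genes past that size (6.06% higher and 10.3% lower in DKO cells, 6.13% and 8.40% in VHL-transduced cells). Between the engineered lines only CDKN1C did, 1 of 8 against 16.6% of all genes (7.18% higher and 9.45% lower). Without VHL-transduced replicate 1, CCND1 joined it, since its difference lay at 0.99 on the log2 scale. Replicates of the 2 groups did not overlap for 8 of 8 members in DKO against parental cells (71.6% of all genes), 7 in VHL-transduced against parental cells (72.2%) and 8 between the engineered lines (72.6%). The first 2 comparisons share the parental libraries, so their values are given side by side and are not independent.

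**Figure D1:**
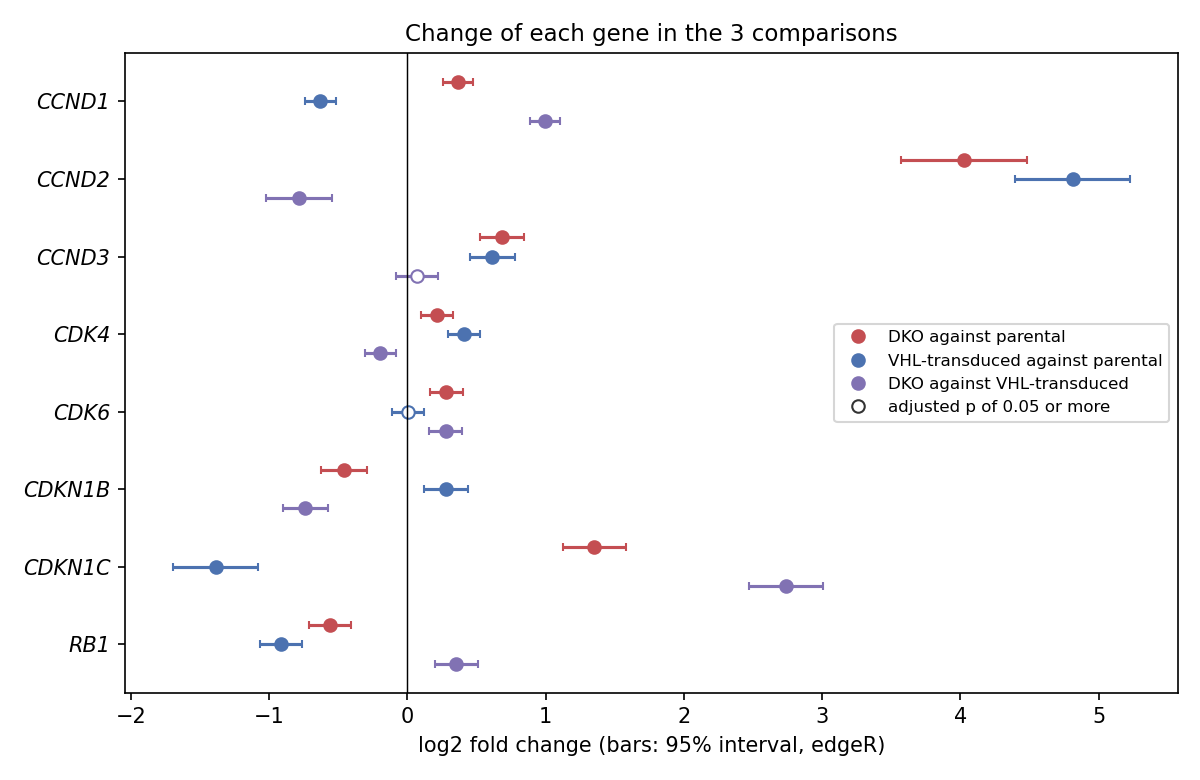
Log2 fold change of the 8 measured genes (horizontal axis) in 3 comparisons, with bars for the 95% interval from the edgeR fit and open circles for changes that were not called. CCND1, CDKN1B and CDKN1C moved in opposite directions in the 2 engineered lines, CCND2 lies far to the right in both, and RB1 lies to the left in both.

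CCND1, the gene of cyclin D1, rose in DKO cells and fell in VHL-transduced cells. Its level was 574 and 577 CPM in the parental libraries, 744 and 737 in DKO and 379 and 365 in VHL-transduced libraries. The 3 groups did not overlap, and the order DKO, parental, VHL-transduced held for every library. The rise in DKO cells was 1.29-fold, or 0.36 ± 0.05 as log2 fold change (SE, adjusted p = 5.9e-07, edgeR), and the fall in VHL-transduced cells was 1.55-fold, or -0.63 ± 0.05 (SE, adjusted p = 1.2e-11, edgeR). The direct test between the engineered lines gave 1.99-fold more CCND1 in DKO cells (adjusted p = 2.1e-16, edgeR). EPAS1, whose product is the factor linked to CCND1 in this cancer, was reduced 7.60-fold as messenger RNA in DKO cells. It was at 366 ± 4.78 CPM in VHL-transduced cells. HIF-2alpha protein was not measured in these files, and its link to CCND1 was not tested. In GENCODE 29, 497 bases of CCND1 exons (10.3%) overlap the opposite-strand gene LTO1, listed here under its older symbol ORAOV1, and no source used here says whether the counting used strand. ORAOV1 was at 16.9 to 25.6 CPM over the 6 libraries.

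The 5 genes whose levels over the 6 libraries lay nearest to those of CCND1, by Euclidean distance between centred log2 CPM among 9536 genes with a mean of at least 10 CPM, were DIAPH3 (distance 0.0851), GET4 (0.0937), RRM2 (0.0977), RALA (0.101) and MARVELD1 (0.108). RRM2, which encodes the regulated subunit of ribonucleotide reductase, was at 198 ± 2.70 CPM in parental, 256 ± 7.58 in DKO and 134 ± 0.952 in VHL-transduced cells. Genes beside CCND1 on chromosome 11 did not share one course. In DKO cells ORAOV1 rose 1.41-fold and FADD, an adaptor of death receptors, rose 1.18-fold, whereas TPCN2, a lysosomal ion channel, fell 1.37-fold and PPFIA1 fell 1.13-fold. In VHL-transduced cells CTTN, the actin regulator cortactin, fell 1.51-fold and TPCN2 1.40-fold, and the other measured neighbours were not called. MYEOV and ANO1 had at most 0.134 CPM as a group mean. The calls of FADD and PPFIA1 in DKO cells were lost without parental replicate 1 (adjusted p = 0.111 and 0.233, edgeR), and that of PPFIA1 also without parental replicate 2 or DKO replicate 2 (adjusted p = 0.0618 and 0.146, edgeR). With libraries scaled to equal medians PPFIA1 was not called in DKO cells (adjusted p = 0.126, edgeR) and was called higher in VHL-transduced cells (adjusted p = 0.0218, edgeR).

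CCND2, the gene of cyclin D2, was almost silent in parental cells and was raised in both engineered lines. Parental libraries had 11 and 13 counts, or 0.371 and 0.573 CPM, above the 0.101 and 0.132 CPM that 3 counts would give. Double-knockout libraries had 200 and 214 counts (6.84 and 8.31 CPM), and VHL-transduced libraries 387 and 341 (13.8 and 12.2 CPM). No groups overlapped. In GENCODE 29, 989 bases of CCND2 exons (13.8%) are shared with AC008012.1 on the same strand and 126 bases with CCND2-AS1 on the opposite one, neither of which was analysed here. The fitted rise was 16.3-fold in DKO cells, with a log2 fold change of 4.03 (95% interval 3.57 to 4.48, adjusted p = 3.4e-16, edgeR), and 28.1-fold in VHL-transduced cells, at 4.81 (4.40 to 5.23, adjusted p = 3.2e-19, edgeR). VHL-transduced cells had 1.72-fold more CCND2 than DKO cells (adjusted p = 7.6e-07, edgeR). The genes nearest to CCND2 by the same distance, among 9537, were CLDN1, INPP4B, NTM, GLIPR1 and HAS3, at 0.920 to 1.32. These distances exceeded those of the 5 genes named above from CCND1. Such distances grow with the size of the changes, which were larger for CCND2. The 2 sets of distances therefore do not show which match was closer in pattern.

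CCND3, the gene of cyclin D3, rose by a similar amount in both lines. Its level was 33.4 and 29.02 CPM in parental, 51.2 and 49.5 in DKO and 46.8 and 49.2 in VHL-transduced libraries. Every engineered library lay above both parental ones. The rise was 1.61-fold in DKO cells (log2 fold change 0.68 ± 0.08, SE, adjusted p = 6.7e-09, edgeR) and 1.53-fold in VHL-transduced cells (0.61 ± 0.08, SE, adjusted p = 6.1e-08, edgeR). The engineered lines were not called different, with a log2 difference of 0.07 and a 95% interval of -0.08 to 0.22 (adjusted p = 0.477, edgeR).

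To compare the 3 cyclins with each other, CPM was divided by the length in kilobases of the longest coding transcript in the GENCODE 29 basic set, which is 4307 bases for CCND1, 6480 for CCND2 and 2394 for CCND3. On this per-length scale CCND1 was the most abundant D-type cyclin in every library, with 134 ± 0.433 CPM per kilobase in parental cells beside 13.0 ± 1.29 for CCND3 and 0.0728 ± 0.0221 for CCND2. The sum of the 3 was 147 and 146 in parental, 195 and 193 in DKO and 109.6 and 107 CPM per kilobase in VHL-transduced libraries. Total D-type cyclin message was therefore highest in the DKO libraries and lowest in the VHL-transduced ones, the order of CCND1. CCND1 made up 91.1% ± 0.815 of the sum in parental, 88.6% ± 0.0826 in DKO and 79.7% ± 0.812 in VHL-transduced cells. The share of CCND3 was 8.88% ± 0.830, 10.8% ± 0.170 and 18.5% ± 0.950 in the same order, and that of CCND2 reached 1.85% ± 0.138 in VHL-transduced cells. With merged exons as the length, CCND3 shares were lower, at 4.32%, 5.32% and 9.50%, in the same order. These shares are descriptions over 2 libraries a group and carry no test.

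**Figure D2:**
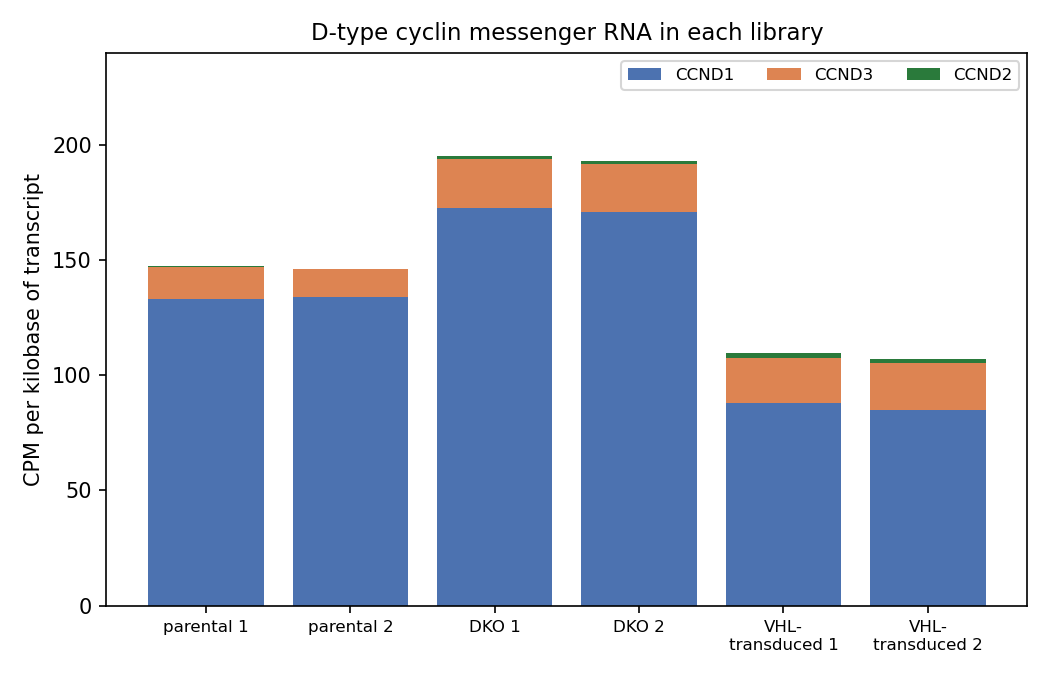
Summed level of the 3 D-type cyclin transcripts in each of the 6 libraries, in CPM per kilobase of the longest coding transcript, with one colour per gene. Double-knockout libraries reach 195 and 193, parental ones 147 and 146 and VHL-transduced ones 109.6 and 107, and CCND1 fills most of every bar.

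CDK4, the first of the 2 kinases that D-type cyclins activate, rose in both engineered lines. It was at 291 and 279 CPM in parental, 338 and 324 in DKO and 369.9 and 388 in VHL-transduced libraries. The order parental, DKO, VHL-transduced held without overlap. The rise was 1.16-fold in DKO cells (log2 fold change 0.22 ± 0.06, SE, adjusted p = 0.00152, edgeR) and 1.33-fold in VHL-transduced cells (0.41 ± 0.06, SE, adjusted p = 2.1e-07, edgeR). Double-knockout cells had 1.15-fold less than VHL-transduced cells (adjusted p = 0.00359, edgeR). The call in DKO cells was lost without parental replicate 2 (adjusted p = 0.0678, edgeR) and that between the engineered lines without DKO replicate 2 (adjusted p = 0.0601, edgeR).

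In GENCODE 29, 1369 bases of CDK4 exons (43.2% of their merged length) overlap TSPAN31, a tetraspanin gene read from the opposite strand. Without stated strand use, reads from this stretch cannot be assigned with certainty. TSPAN31 was at 24.5 and 23.7 CPM in parental, 8.001 and 7.38 in DKO and 30.7 and 31.2 in VHL-transduced libraries. It therefore fell in the DKO libraries, by 1.64 on the log2 scale (adjusted p = 1.6e-15, edgeR), in which CDK4 was higher. In the VHL-transduced libraries both TSPAN31 and CDK4 lay above the parental ones. The part of the overlap in the CDK4 counts was not tested. TSPAN31 was named after its values were seen, because of the overlap.

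CDK6, the partner kinase with the same role, rose in DKO cells alone. Libraries had 276 and 282 CPM in parental, 334 and 344 in DKO and 291 and 269 in VHL-transduced cells. Double-knockout libraries lay above all 4 others, and the VHL-transduced pair straddled the parental one. The rise was 1.21-fold (log2 fold change 0.28 ± 0.06, SE, adjusted p = 0.000101, edgeR) in DKO against parental cells and 1.21-fold against VHL-transduced cells (adjusted p = 0.000116, edgeR). In VHL-transduced against parental cells the log2 difference was 0.00, with a 95% interval of -0.11 to 0.12 (adjusted p = 0.988, edgeR). Per length, CDK4 exceeded CDK6 in every group, with 137 ± 3.88 against 24.0 ± 0.419 CPM per kilobase in parental cells.

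The promoters of the 2 kinase genes are shown because both carry the E-box CACGTG, a sequence bound by MYC and related factors, and because MYC itself changed. Sequences run from 250 bases before to 50 bases after the gene start (RefSeq, GRCh38.p14, both on the minus strand), with CACGTG in capitals. The CDK4 window is chr12:57752261-57752560 and the CDK6 window chr7:92836524-92836823, the farther upstream of 2 CDK6 starts in that table.
CDK4: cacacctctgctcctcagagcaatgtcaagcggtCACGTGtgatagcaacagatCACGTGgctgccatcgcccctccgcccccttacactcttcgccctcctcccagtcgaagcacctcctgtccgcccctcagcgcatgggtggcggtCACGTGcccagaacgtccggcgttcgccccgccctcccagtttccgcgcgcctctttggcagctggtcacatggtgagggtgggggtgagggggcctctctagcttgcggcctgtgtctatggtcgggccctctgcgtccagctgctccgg
CDK6: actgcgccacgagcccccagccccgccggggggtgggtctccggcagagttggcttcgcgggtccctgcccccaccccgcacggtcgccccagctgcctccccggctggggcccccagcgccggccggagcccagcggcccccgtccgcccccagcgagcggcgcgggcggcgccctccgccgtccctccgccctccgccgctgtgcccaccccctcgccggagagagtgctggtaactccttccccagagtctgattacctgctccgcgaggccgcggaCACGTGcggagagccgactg
CDK4 has 3 copies, starting 216, 196 and 101 bases before the gene start, and CDK6 has 1, starting at base 31 after it. CACGTG reads the same on both strands, and 7.26% of 35116 promoter windows of this length hold it, 33 of them (0.0940%) with 3 or more copies. Of the 8 measured members 5 had a window in the table. That of RB1 lies at an alternative start far inside the gene and was not used here. The windows of CCND3, CDKN1B and the other CDK6 start held no CACGTG. The hypoxia-response core was searched as ACGTG and GCGTG on both strands. ACGTG, which every CACGTG contains, was found in the CDK4 window and both CDK6 windows (21.4% of all windows hold it), and GCGTG in the farthest upstream of 3 CCND3 starts, CDKN1B and the other CDK6 start (36.5% of all windows). These matches describe the letters of the windows, and the motifs were chosen with the values known.

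MYC was at 348 and 338 CPM in parental, 261 and 261 in DKO and 127 and 128 in VHL-transduced libraries. It fell 1.32-fold in DKO and 2.70-fold in VHL-transduced cells (adjusted p = 3.6e-07 and 1.2e-19, edgeR). The order of MYC over the 3 groups was the reverse of that of CDK4. CDK6 did not have that order, since it was higher in DKO cells alone. A part of MYC in the level of either kinase gene was not tested.

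**Figure D3:**
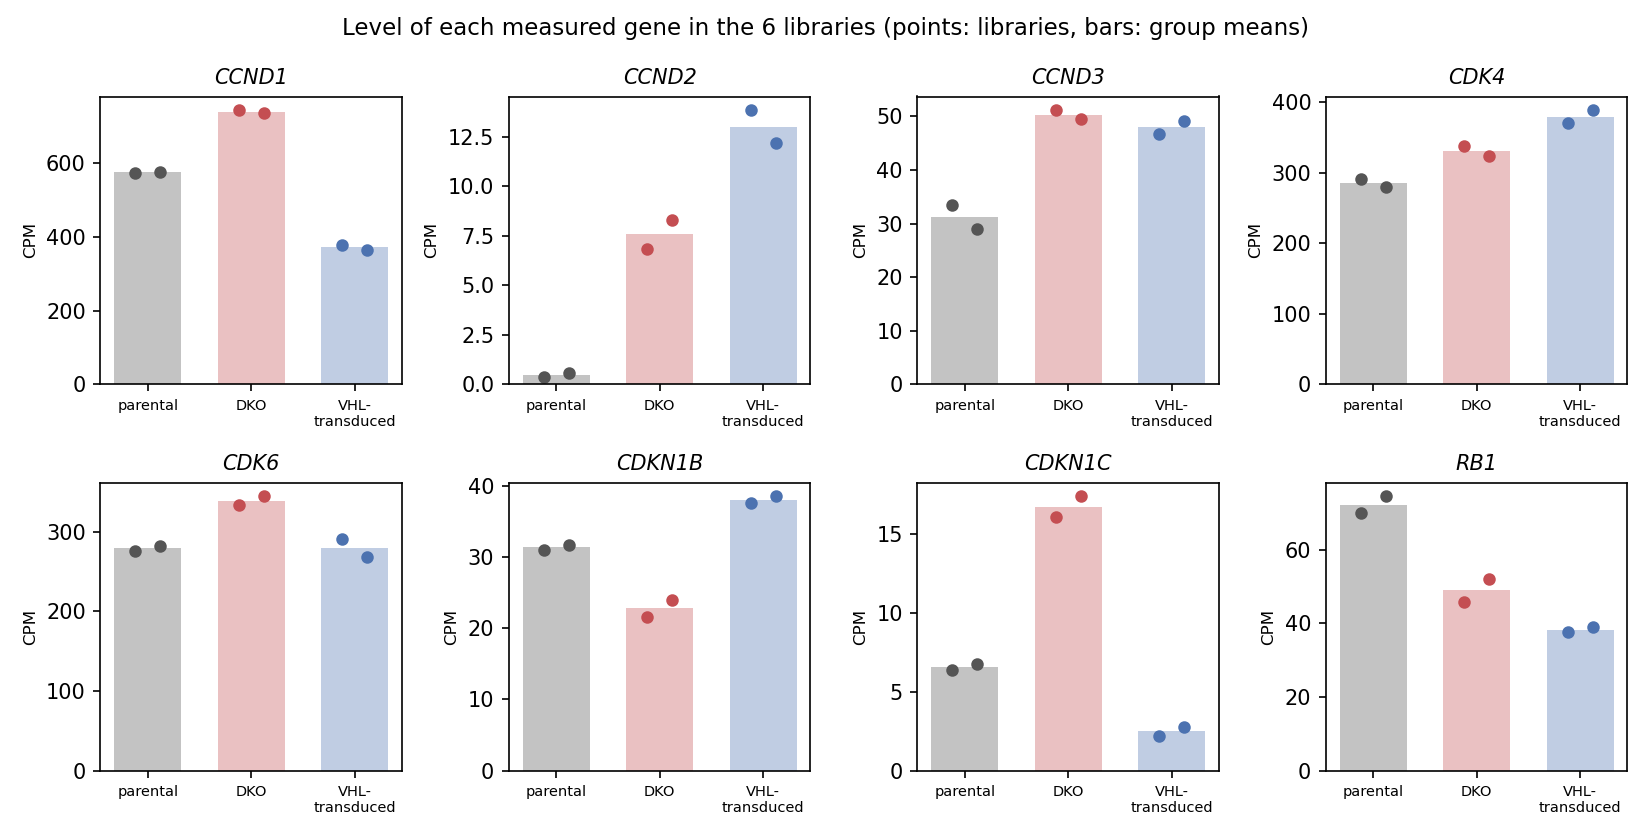
Level in CPM (vertical axis, from 0) of each of the 8 measured genes in parental, DKO and VHL-transduced cells, with points for the 2 libraries of a group and bars for their mean. CCND1 runs from 365 to 744 CPM over the libraries and CCND2 from 0.371 to 13.8, and in every panel except that of CDK6 the parental points lie apart from both engineered pairs.

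CDKN1C, which encodes the CIP/KIP inhibitor p57, showed the widest difference between the engineered lines among the members. It was at 6.37 and 6.79 CPM in parental, 16.1 and 17.4 in DKO and 2.22 and 2.79 in VHL-transduced libraries, from 189 and 154, 471 and 448, and 62 and 78 counts. The 3 groups stood apart in the same order as for CCND1. CDKN1C rose 2.55-fold in DKO cells (95% interval of the log2 fold change 1.12 to 1.58, adjusted p = 4.9e-12, edgeR) and fell 2.62-fold in VHL-transduced cells (-1.39 ± 0.15, SE, adjusted p = 2.3e-09, edgeR). Double-knockout cells had 6.68-fold the VHL-transduced level (adjusted p = 9.1e-18, edgeR). Its nearest genes by pattern were EIF5A2, NRCAM, SMIM3, FAM174B and SERPINB8, at distances of 0.285 to 0.425 among 9537.

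CDKN1C lies in an imprinted cluster on chromosome 11, where several genes are expressed from one parental copy. Its neighbours followed different courses. PHLDA2, a growth-restraining imprinted gene, rose from 7.21 and 6.97 CPM in parental to 46.5 and 47.2 in DKO and 14.4 and 15.3 in VHL-transduced libraries. KCNQ1OT1, the long noncoding RNA of the cluster, was at 17.7 CPM in parental, 26.3 in DKO and 16.1 in VHL-transduced cells as group means, called in DKO cells alone of the 2 lines (adjusted p = 2.3e-06 and 0.203, edgeR). In the adjoining imprinted domain, the growth factor gene IGF2 fell from 26.4 and 23.3 CPM to 0.137 and 0.155 in DKO and 5.12 and 3.11 in VHL-transduced libraries, and the noncoding RNA H19 fell 24.2-fold and 2.29-fold. CDKN1C thus shared its direction with PHLDA2 in DKO cells and had the opposite one in VHL-transduced cells. SLC22A18, next to CDKN1C, rose 1.47-fold in DKO cells and CARS 1.68-fold, NAP1L4 rose 1.18-fold in VHL-transduced cells, and KCNQ1 had at most 0.268 CPM as a group mean. CARS was also called in VHL-transduced cells, at 1.15-fold, but not without parental replicate 1 or 2 (adjusted p = 0.0650 and 0.0738, edgeR).

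CDKN1B, which encodes p27, the other CIP/KIP inhibitor among the members, moved the opposite way to CDKN1C in each line. It was at 31.0 and 31.7 CPM in parental, 21.6 and 24.0 in DKO and 37.6 and 38.5 in VHL-transduced libraries. No groups overlapped, with DKO lowest and VHL-transduced highest. It fell 1.38-fold in DKO cells (log2 fold change -0.46 ± 0.08, SE, adjusted p = 1.3e-05, edgeR) and rose 1.21-fold in VHL-transduced cells (0.28 ± 0.08, SE, adjusted p = 0.00278, edgeR). The rise was not called without parental replicate 1 (adjusted p = 0.0579, edgeR). Between the engineered lines CDKN1B was 1.67-fold lower in DKO cells (adjusted p = 1.8e-09, edgeR). Per length, p27 message exceeded p57 message in parental cells, with 11.8 ± 0.179 against 3.40 ± 0.155 CPM per kilobase. In DKO cells they were 8.58 ± 0.638 and 8.65 ± 0.474, within the spread of the libraries, and in VHL-transduced cells 14.3 ± 0.247 and 1.29 ± 0.208. The near equality in DKO cells depended on the length used. With merged exons, p27 message was at 7.69 and 8.54 and p57 message at 6.50 and 7.02 in the DKO libraries.

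CDKN1A, which encodes p21, the third CIP/KIP inhibitor, was at 265 to 314.5 CPM in all libraries. It rose 1.15-fold in DKO and 1.10-fold in VHL-transduced cells (adjusted p = 0.00224 and 0.0397, edgeR). The first call was lost without parental replicate 2 (adjusted p = 0.0560, edgeR), and the second without any 1 parental or VHL-transduced library (adjusted p from 0.0533 to 0.181, edgeR).

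For the INK4 inhibitors, CDKN2C and CDKN2D were read. CDKN2C, encoding p18, fell from 87.5 and 92.0 CPM in parental to 58.0 and 60.1 in DKO libraries, 1.52-fold (adjusted p = 2.9e-09, edgeR), and was at 91.1 and 92.3 in VHL-transduced libraries (adjusted p = 0.718, edgeR). CDKN2D, encoding p19, was at 4.51 to 5.80 CPM and was not called (adjusted p = 0.162 and 0.0804, edgeR). The chromosome 9 genes around CDKN2A and CDKN2B gave signal on both sides. MTAP, directly beside CDKN2A in RefSeq, was at 15.4 and 13.9 CPM in parental, 11.01 and 10.9 in DKO and 12.6 and 10.4 in VHL-transduced libraries. DMRTA1, on the other side with 1 coding gene between, was at 6.26 to 16.3 CPM over the libraries. DMRTA1 and KLHL9 both fell in DKO cells (1.65 and 1.67-fold) and rose in VHL-transduced cells (1.54 and 1.34-fold). CDKN2B-AS1, the noncoding RNA that runs through the locus, had 1 count in all 6 libraries together. The interferon gene IFNE was low but called higher in VHL-transduced than in parental cells, from 2 and 2 counts in parental, 1 and 3 in DKO and 16 and 18 in VHL-transduced libraries (adjusted p = 0.000523, edgeR). IFNB1 had at most 0.0536 CPM as a group mean. MTAP fell 1.34-fold and 1.28-fold, and these calls were lost without parental replicate 1 (adjusted p = 0.0837 and 0.165, edgeR) and, in VHL-transduced cells, without VHL-transduced replicate 2 (adjusted p = 0.129, edgeR).

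RB1, the substrate that the D-type cyclin kinases inactivate, fell in both engineered lines. It was at 69.9 and 74.5 CPM in parental, 45.9 and 52.1 in DKO and 37.6 and 38.9 in VHL-transduced libraries. Every parental library lay above every engineered one, and VHL-transduced libraries were lowest. The fall was 1.47-fold in DKO cells (log2 fold change -0.56 ± 0.07, SE, adjusted p = 9.8e-08, edgeR) and 1.88-fold in VHL-transduced cells (-0.91 ± 0.08, SE, adjusted p = 5.7e-12, edgeR). Double-knockout cells had 1.28-fold the VHL-transduced level (adjusted p = 0.000189, edgeR). LPAR6, a receptor gene lying inside RB1 on the opposite strand with no shared exon base in GENCODE 29, had 43 and 37 counts in parental, 0 and 0 in DKO and 23 and 33 in VHL-transduced libraries. LINC00462, a noncoding RNA in the same stretch, had 144 and 136, 0 and 0, and 2 and 1 counts. RCBTB2, which also overlaps RB1 on the opposite strand without a shared exon base, had 370 and 352, 232 and 244, and 267 and 283 counts. LPAR6, LINC00462 and RCBTB2 were named after their values were seen. RB1 itself had 1342 and 1341 counts in the DKO libraries. A link between these genes and the level of RB1 was not tested.

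Of the related pocket proteins, RBL2, encoding p130, fell from 115 and 119 CPM in parental to 55.3 and 62.3 in DKO libraries, 1.99-fold (adjusted p = 7.6e-14, edgeR). In VHL-transduced libraries it was at 135.6 and 128, a rise of 1.13-fold that was not called without either parental library or VHL-transduced replicate 1 (adjusted p from 0.123 to 0.216, edgeR). RBL1, encoding p107, was not called in any of the 3 comparisons, but its lower level in DKO cells was called with the replicate block (adjusted p = 0.0475, edgeR). Of the 12 genes of pocket proteins and E2F factors, 6 rose and 5 fell in DKO cells, and 3 rose and 4 fell in VHL-transduced cells. Median log2 fold changes were 0.08 and -0.01, beside 0 for all genes. Among all genes tested 54.1% and 54.2% were called in these lines. With the filter against low counts, 70.5% of the genes kept were called in each line. E2F7 rose 2.65-fold in DKO and 1.36-fold in VHL-transduced cells, and E2F8, the related E2F repressor, fell 3.94-fold in DKO cells. E2F1, the classical activator held by RB, rose 1.61-fold there, and in VHL-transduced cells E2F4, a repressor E2F, rose 1.97-fold and E2F5 fell 2.56-fold. The VHL-transduced count for this list was 3 instead of 7 without parental replicate 2.

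Genes beyond RB moved in both directions. Over the 8 lists of cell cycle genes together, 39 of 67 rose and 17 fell in DKO cells (median log2 fold change 0.24), and 30 rose and 15 fell in VHL-transduced cells (median 0.08). Among all genes tested 26.6% were called higher and 27.5% lower in DKO cells, and 26.5% and 27.7% in VHL-transduced cells. With the filter against low counts, 70.5% of the genes kept were called in either direction in each line. Each list count above and below is to be read against these shares. Of 16 replication genes regulated by E2F, 9 rose and 5 fell in DKO cells, and 12 rose and 2 fell in VHL-transduced cells (medians 0.20 and 0.40). MCM3, a subunit of the replicative helicase, was at 231 and 214 CPM in parental, 227 and 210.3 in DKO and 499 and 509.6 in VHL-transduced libraries. It rose 2.27-fold in VHL-transduced cells and was not called in DKO cells (adjusted p = 3.1e-17 and 0.759, edgeR). CDC45, a helicase activator, rose 1.62-fold in DKO and 1.57-fold in VHL-transduced cells. PCNA, the sliding clamp, rose 1.60-fold in DKO cells, and MCM5, another helicase subunit, rose 1.18-fold in DKO and 1.64-fold in VHL-transduced cells. PCNA was 1.12-fold higher in VHL-transduced cells, a call lost without parental replicate 1 or 2 or VHL-transduced replicate 2. RRM2, named above as near to CCND1, belongs to this list and fell 1.47-fold in VHL-transduced cells.

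Of 6 genes of cyclin E, cyclin A and CDK2, 4 rose and 1 fell in each line (medians 0.36 and 0.41). CCNE1, encoding cyclin E1, rose from 7.28 and 7.23 CPM in parental to 19.2 and 15.1 in DKO and 10.7 and 10.6 in VHL-transduced libraries. CDC25A, the phosphatase that activates CDK2, rose 1.86-fold and 2.55-fold. CCNE2 (cyclin E2) rose 1.43-fold in DKO cells and fell 1.38-fold in VHL-transduced cells. CCNA1, a cyclin A known from the germ line, had 1 and 3 counts in parental, 3 and 0 in DKO and 16 and 6 in VHL-transduced libraries. It was called higher in VHL-transduced cells (adjusted p = 0.0246, edgeR), but not without parental replicate 1 or 2 or VHL-transduced replicate 1. DESeq2 on all libraries did not call it either (adjusted p = 0.133, Wald test). The count of this list was 3 instead of 5 without parental replicate 1 or DKO replicate 2 in DKO cells, and without parental replicate 2 in VHL-transduced cells. All 3 genes of the CDK-activating kinase rose in DKO cells, CCNH (cyclin H) by 1.53-fold, MNAT1 by 1.61-fold and CDK7 by 1.25-fold, whereas in VHL-transduced cells CCNH fell 1.68-fold and CDK7 1.25-fold. MNAT1 was 1.26-fold higher there, a call lost without parental replicate 1 (adjusted p = 0.0977, edgeR).

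Of 9 genes that act in the turnover of cyclin D and p27, 5 rose and 3 fell in DKO cells and 1 rose and 3 fell in VHL-transduced cells (medians 0.18 and -0.07), beside 54.1% and 54.2% of all genes called in either direction. FBXO4, an F-box protein linked to cyclin D1 degradation, fell 1.66-fold and 1.46-fold, and CUL1, the ubiquitin ligase scaffold, rose 1.33-fold and fell 1.29-fold. RBX1, the RING subunit bound to it, rose 1.34-fold in DKO cells. AMBRA1, a substrate receptor for D-type cyclins, rose by 0.18 on the log2 scale in DKO and 0.44 in VHL-transduced cells. The call of AMBRA1 in DKO cells was lost with DESeq2 (adjusted p = 0.0670, Wald test) and without parental replicate 1 or 2 or DKO replicate 1. The DKO count of 8 was 4 without parental replicate 1 or 2 and 5 without DKO replicate 2. Of 8 regulators of cyclin D transcription, 5 rose and 1 fell in DKO cells, and 6 rose and 2 fell in VHL-transduced cells (medians 0.36 and 0.54). ETS2 rose 5.01-fold and 1.92-fold, and JUN, a component of AP-1, rose 2.98-fold and 1.43-fold. FOSL1, another AP-1 gene, rose 2.16-fold and 1.49-fold, and CTNNB1, encoding beta-catenin, rose 1.66-fold in VHL-transduced cells. MYC fell in both, as given above.

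Of 10 mitotic genes 6 rose and 1 fell in DKO cells, and 2 rose and 1 fell in VHL-transduced cells (medians 0.23 and -0.01). MKI67, the Ki-67 gene, was at 582 and 549 CPM in parental, 850.4 and 779.7 in DKO and 586 and 527 in VHL-transduced libraries. CDC20, an activator of the anaphase-promoting complex, rose 2.06-fold and 1.80-fold, and TOP2A, topoisomerase II alpha, fell 1.71-fold in DKO cells. AURKB, a mitotic kinase, rose 1.36-fold in DKO and 1.42-fold in VHL-transduced cells. CDK1, the mitotic kinase of the cyclin B complexes, was 1.14-fold lower in VHL-transduced cells. That call was lost without parental replicate 2 or VHL-transduced replicate 2, and with libraries scaled to equal medians (adjusted p = 0.116, edgeR). In these bulk samples fewer cells in a phase of the cycle and less RNA per cell cannot be told apart. Proliferation was not measured in these files.

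**Figure D4:**
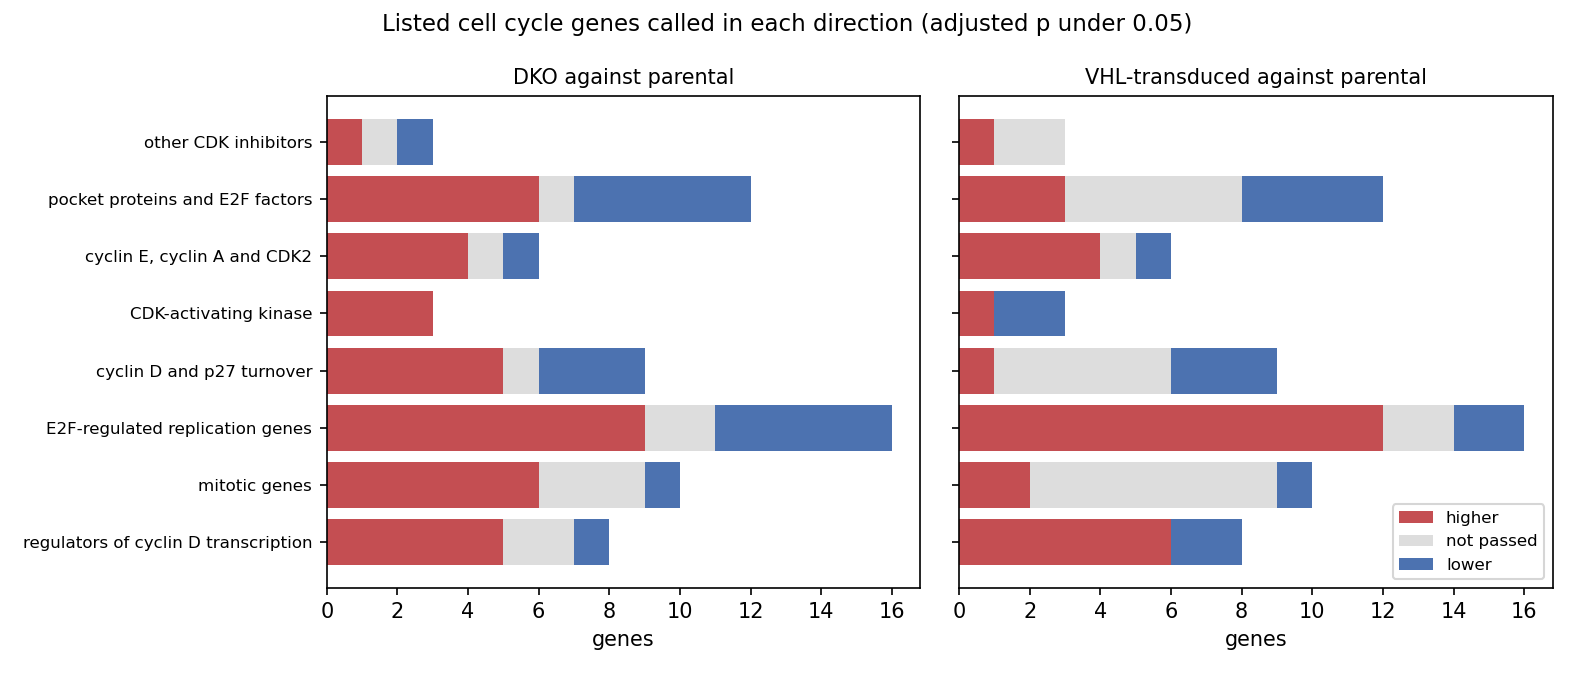
Number of genes (horizontal axis) in 8 lists of cell cycle genes that were higher, not called or lower at an adjusted p under 0.05, in DKO (left) and VHL-transduced (right) against parental cells. E2F-regulated replication genes had 9 higher and 5 lower on the left and 12 higher and 2 lower on the right, and the 3 genes of the CDK-activating kinase were all higher on the left.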

How the data were processed

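Poly(A)-selected RNA of 6 RCC10 libraries was sequenced. The authors deposited one table of whole-number counts per gene symbol, whose name calls them normalized. They were used as raw, since all are whole and the libraries do not share one total. HISAT2 2.2.1, featureCounts 2.0.8, limma 3.58.1, Trimmomatic 0.39 and FastQC 0.74 appear in the submitters' processing notes, beside the builds hg38 and hg19. No source used here gives the role of each build, the counting settings or the use of strand, so reads of overlapping genes are uncertain.

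Genes with at least 1 count were tested (18273 of 19009) in a model of 3 group means over all 6 libraries with edgeR 4.0.16 in R 4.3.3, TMM scaling, prior count 0.125 and Benjamini-Hochberg adjustment over all genes. The SE is the log2 fold change divided by the root of the F statistic, and intervals are at 95%. The common biological coefficient of variation was 4.41%. Counting floors are 3 counts and cover counting error only. Replicates differed by more than sampling noise, at 2.65 to 6.89 in chi-square over degrees of freedom. The analysis was tested on simulated data. Alternatives were other scaling, a low-count filter, DESeq2 1.42.0, limma-voom, a fit on the 2 groups compared, a replicate block and leaving out each library.

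Members and lists were chosen with earlier results of these data known. Named are the members, the targeted genes, neighbours of CCND1, CDKN1C, CDKN2A and CDKN2B, up to 3 genes per list with the largest called change and no overlap of replicates, and the 5 genes nearest in pattern. Genes of lists are named here for the comparisons with parental cells, and RBL1, E2F1 and single cell type markers were named after their values were seen. Of listed neighbours, FGF3, FGF4, FGF19, ELAVL2 and IFNA1 were not analysed here. A gene of the replication list is counted but not reported by name here.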

Additional observations from a re-analysis of the deposited data

How the results depend on the processing

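Each comparison of the 8 members was repeated under 13 alternatives, 6 of which left out a library. The count of members called stayed within 1.5 times its value in all of them, and no member changed direction where it was called. The count past 2-fold between the engineered lines ranged from 1 to 2 when a library was left out, and was 2 without VHL-transduced replicate 1. Among 312 values of single members, 3 lost their call, all by leaving out a library, as given with CDK4 and CDKN1B. The replicate numbers are not stated to mark a shared culture or day. Deviations of same-numbered libraries correlated at 0.295 between parental and DKO, -0.00599 between parental and VHL-transduced and -0.0141 between the engineered lines, over 9537 genes. With the replicate block, 8, 7 and 7 members were called in the 3 comparisons, as without it. Among other listed genes, 125 values lost and 34 gained a call over all alternatives. CCND2 in parental cells rested on 11 and 13 counts.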
